A study of Homo sapiens with 12 samples.

Results

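JAG1 and 7 other genes of the Notch pathway (JAG2, DLL1, NOTCH1, NOTCH2, NOTCH3, HES1 and HEY1) were followed in 12 RNA libraries of a liver and a colon cancer cell line. These 8 genes were taken by name out of 57736 genes in the count tables, and their counts were summed over all 3′ regions listed for each name. They were chosen by their differences in count between groups, that of JAG1 above all, with and without the extract and between the lines. Their values with and without the extract and in both lines are therefore given as a description, and no p-value is attached to them. Counts of members past a limit describe the fits and are no test. HepG2 is an established line of human liver cancer and Ls174 one of human colon cancer. Both were exposed for 24 h to HME, a methanolic extract of the marine macroalga *Hypnea musciformis*. The sample labels give the dose as 0.7 mg/ml. Control cells of each line were cultured for 24 h without HME (0 mg/ml), and the labels name no other treatment or genetic change. Each of the 4 groups (HepG2 control, HepG2 HME, Ls174 control, Ls174 HME) held 3 biological replicates. The replicates of a group were cultures of 1 line, so that the spread between them is that of cultures and not of patients.

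Notch signalling passes between neighbouring cells. A membrane-bound ligand on one cell, of the Jagged or Delta-like family, binds a NOTCH receptor on the next, and endocytosis of the ligand exposes the receptor to cleavage, first by ADAM metalloproteases and then by gamma-secretase. The released intracellular domain enters the nucleus, joins the DNA-binding protein RBPJ and a Mastermind-like coactivator, and turns on target genes such as those of the HES and HEY repressors. In the liver JAG1 is known for its role in bile duct formation, and in the intestine Notch activity holds progenitor cells back from the secretory fate.

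The libraries held between 1790841 and 3656662 counts. Levels are given as CPM, the counts of a gene divided by the library total after scaling with TMM factors. Reads of 3′ libraries come mainly from transcript ends, whatever the transcript length, so that CPM values may be set beside each other across genes. A total of 3 counts in a library, which was taken as the floor, corresponded to 0.764 to 1.85 CPM. Liver markers matched the labels, with 8 of 8 detected in every HepG2 library at a summed level of 13300 to 20100 CPM, of which albumin made up 2140 to 7720 CPM. In Ls174 cells the intestinal factors CDX1 (76.4 to 206 CPM) and CDX2 (31.8 to 97.7 CPM) were present, while MUC2 and KRT20 were at or near 0. Ls174 control 3 and Ls174 HME 1 also held liver transcripts, with 8 and 7 of the 8 markers and summed levels of 106 and 51.5 CPM, against 0.309 to 11.1 CPM in the other Ls174 libraries. HepG2 HME 2 held COL1A1 at 546 CPM and COL1A2 at 404 CPM, against at most 6.03 and 3.21 CPM in the other HepG2 libraries. Endothelial markers, of a cell type rich in Notch ligands, summed to 1.21 to 18.2 CPM in HepG2 control cells. They summed to 2.75 to 7.76 CPM in treated HepG2 cells and at most 0.362 CPM in Ls174. In HepG2 most of this was ROBO4 (66, 19 and 3 counts in the controls), while KDR, TEK, CLDN5 and ERG had no counts in any library. Blood markers summed to 203 to 723 CPM in HepG2 control cells and 506 to 659 CPM with HME, nearly all of it LYZ and CD74. A single control of each line lay apart from its group, HepG2 control 2 with a chi-square over its degrees of freedom of 54.1 and 49.1 to the other 2 controls (13.6 between these) and Ls174 control 1 with 34.5 and 37.0 (5.68 between these). The part of these features in the results below was not tested, and values without these libraries are given where they matter.

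Each member was read mainly from the end of its transcript. All 2370 counts of JAG1 lay in 1 region of 2011 bases, chr20:10618135-10620145 (hg19, minus strand). Of these bases 1814 fall in the 3′ untranslated part of the last exon and 197 lie past the annotated gene end. All 498 counts of HES1 lay at chr3:193856023-193856718 (plus strand), of which 499 bases are 3′ untranslated sequence. For NOTCH1, 96.8% of the counts came from the last exon (chr9:139388699-139390522, minus strand), and for NOTCH2 94.0% did (chr1:120453979-120457928, minus strand). None of the regions with counts overlapped a listed region of another gene. The name JAG1 is carried by 2 gene identifiers in the tables, ENSG00000101384 with all counts and a second one without any.

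The stretches around the transcription start of JAG1, the ligand counted most, and of HES1, the classical Notch target, are shown because they differ in the motif through which Notch acts on its targets. In a search of both strands for GTGGGAA, the core letters of an RBPJ site, 6.25% of 35116 RefSeq windows of 300 bases (GRCh38.p14) held a match. Of the members, 6 had a window (DLL1 and HEY1 had none), and the motif was found in 1 of them, HES1, starting at base 166. In the lines below the window is in lower case, 5′ to 3′ on the strand of the gene, with the RBPJ letters in capitals. The JAG1 window lies at chr20:10673950-10674249 (minus strand) and the HES1 window at chr3:194135898-194136197 (plus strand).
JAG1: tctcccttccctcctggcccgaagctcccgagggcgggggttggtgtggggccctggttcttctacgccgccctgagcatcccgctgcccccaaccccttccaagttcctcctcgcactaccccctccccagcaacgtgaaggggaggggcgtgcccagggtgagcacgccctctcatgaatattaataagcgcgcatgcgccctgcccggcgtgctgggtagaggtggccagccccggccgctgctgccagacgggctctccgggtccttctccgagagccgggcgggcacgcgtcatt
HES1: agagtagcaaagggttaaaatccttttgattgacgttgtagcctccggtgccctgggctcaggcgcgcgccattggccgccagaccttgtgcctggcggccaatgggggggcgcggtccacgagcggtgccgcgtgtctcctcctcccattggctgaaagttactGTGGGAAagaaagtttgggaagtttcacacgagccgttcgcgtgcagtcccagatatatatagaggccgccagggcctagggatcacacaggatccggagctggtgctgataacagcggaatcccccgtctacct

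The AP-1 letters TGANTCA were in 0 of the 6 member windows and in 7.71% of all windows. The letters CACNAG, to which HES repressors bind, were in 4 of the 6 (NOTCH1, NOTCH2, NOTCH3 and HES1) and in 38.0% of all windows. Among 64 other genes of the pathway, 51 had a window, and RBPJ letters were in 5 of them, SPEN, HES4, HES5, HEY2 and HEYL. A match describes these letters only and is not evidence of a bound site, and a window without a match says nothing of sites elsewhere.

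JAG1, a Jagged ligand, had the highest mean level of the 5 Jagged and Delta-like ligands in every group. In HepG2 control cells it stood at 31.0, 36.5 and 37.0 CPM (34.8 ± 3.32, SD, n = 3) and in HME-treated HepG2 cells at 295, 239 and 254 CPM (263 ± 29.0). Every treated HepG2 library lay well above every control. The log2 fold change was 2.93 (SE 0.31), a 7.59-fold higher level, and it stayed between 2.83 and 3.02 when each library was left out in turn, HepG2 control 2 and HepG2 HME 2 included. In RNA of whole cultures, fewer cells with a transcript and less of it per cell cannot be told apart, here and below. In Ls174 cells JAG1 stood at 14.7, 17.6 and 16.0 CPM without HME (16.1 ± 1.47) and at 7.25, 10.6 and 14.7 CPM with it (10.9 ± 3.73). The Ls174 groups overlapped, and the log2 fold change was -0.57 (SE 0.34). The order of the JAG1 levels was thus HepG2 HME, HepG2 control, Ls174 control and Ls174 HME, of which the last neighbours did not differ beyond their spread.

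JAG2, the second Jagged ligand, was scarce. It had 0 counts in all 3 HepG2 controls and 2, 0 and 4 counts in the treated HepG2 libraries, with an overlap at 0. The exact 95% interval of the ratio of the scaled sums, HME to control, began at 1.31 (counting error only). In Ls174 cells it stood at 2.93, 3.71 and 4.84 CPM without HME and at 0.362, 3.89 and 0.980 CPM with it. These Ls174 groups overlapped through HME 2, and the log2 fold change of -1.15 (SE 0.76) became -2.43 without that library, -0.67 without HME 1 and -0.47 without both libraries with liver transcripts. DLL1, a Delta-like ligand, had 0 counts in all 6 HepG2 libraries. In Ls174 it had 0, 8 and 10 counts without HME and 2, 3 and 3 with HME, a ratio of 0.474 after scaling (exact 95% interval 0.178 to 1.14, counting error only).

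**Figure D1:**
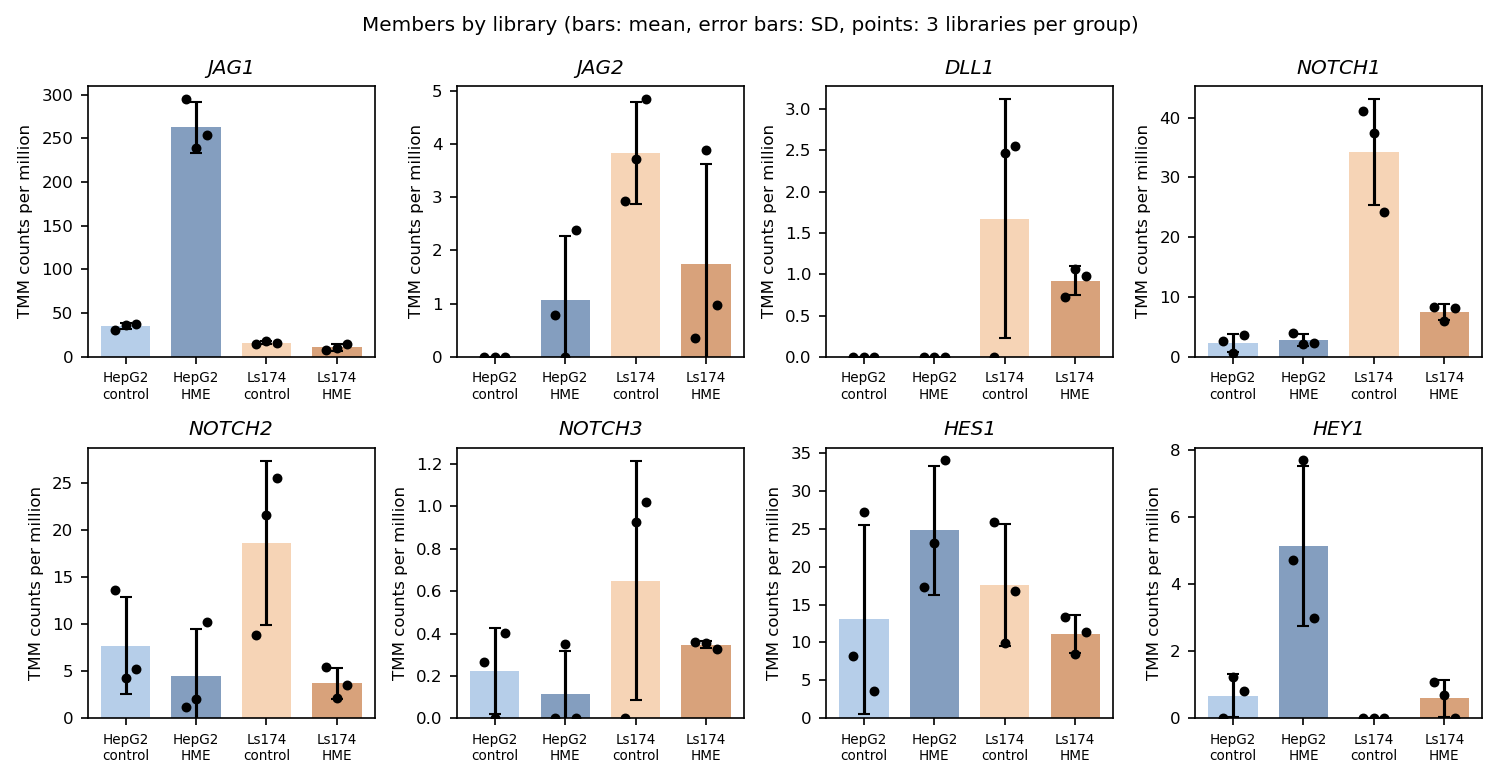
TMM-scaled CPM of the 8 members in the 4 groups on linear axes that start at 0, with bars for the mean, error bars for the SD and 1 point per library (3 per group). JAG1 lies between 239 and 295 CPM in HME-treated HepG2 cells and at most at 37.0 CPM elsewhere, while NOTCH1 and NOTCH2 are highest in Ls174 control cells.

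The make-up of the ligand pool differed between the lines, a measure added after the values were seen. Of the summed counts of JAG1, JAG2, DLL1, DLL3 and DLL4, JAG1 made up 95% of 281 counts in HepG2 control cells (91.3 to 100% by library) and 97.4% of 1908 counts with HME (94.9 to 98.6%). In Ls174 cells it made up 42.5% of 353 counts without HME (40.0 to 44.2%) and 50.3% of 189 counts with HME (40.0 to 60.0%). The rest of the Ls174 pool was mainly DLL4 and DLL3, at 26.1% and 15.9% without HME and 11.1% and 26.5% with it. DLL4, an activating Delta-like ligand, took 18.8 to 52.0% of the pool in the Ls174 controls, the highest share in control 1, the control that lay apart. DLL3, a ligand not known to activate receptors, stood at 0 to 2.94 CPM in HepG2 control cells and 3.54 to 11.3 CPM with HME, a ratio of 3.49 (exact 95% interval 1.88 to 6.89, counting error only). The JAG1 share was at least 91.3% in all 6 HepG2 libraries and at most 60.0% in all 6 Ls174 libraries, so that the lines did not overlap with or without HME.

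**Figure D2:**
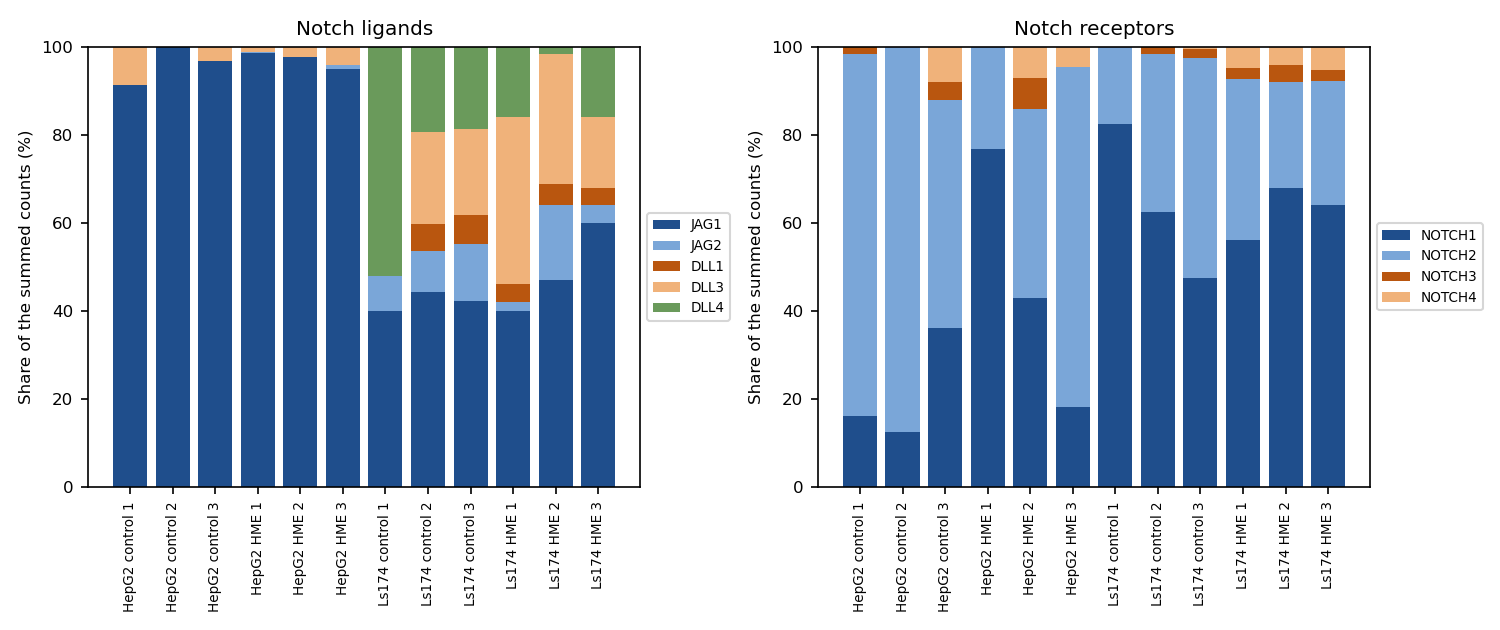
Share in percent of each gene in the summed counts of 5 Notch ligands (left) and 4 Notch receptors (right), with 1 bar per library. JAG1 fills 91.3 to 100% of the ligand bar in HepG2 and 40.0 to 60.0% in Ls174, and NOTCH3 and NOTCH4 each fill at most 8% of any receptor bar.

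Of the receptors, NOTCH1 was near the floor in HepG2 libraries and higher in Ls174 control cells. It stood at 41.1, 37.4 and 24.2 CPM in Ls174 control cells (34.2 ± 8.88) and at 8.34, 6.01 and 8.17 CPM after HME (7.51 ± 1.30). All treated Ls174 libraries lay below all controls, with a log2 fold change of -2.18 (SE 0.32), a 4.54-fold lower level, and -2.39 to -2.02 when each library was left out. Without both Ls174 libraries that held liver transcripts it was -2.47. The value was past an adjusted p of 0.05 in 10 of 17 alternatives. It was no longer so with replicate blocks, without both of these libraries or without any 1 library other than control 1. NOTCH1 was chosen for this contrast, so that these calls are a description only. In HepG2 cells NOTCH1 had 10, 1 and 9 counts without HME and 10, 6 and 4 with it, which was too few for the fit, and the ratio of the summed counts was 1.11 (exact 95% interval 0.567 to 2.17, counting error only).

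NOTCH2 followed NOTCH1 in Ls174 cells, at 8.80, 21.6 and 25.5 CPM without HME (18.6 ± 8.72) and 5.44, 2.12 and 3.59 CPM with it (3.72 ± 1.66). The groups did not overlap, although control 1 lay closer to the treated libraries than to the other controls. The log2 fold change was -2.34 (SE 0.51), a 5.05-fold lower level. In HepG2 cells NOTCH2 stood at 13.6, 4.33 and 5.22 CPM without HME and at 1.18, 2.10 and 10.2 CPM with it. The overlap there was wide, and the log2 fold change of -0.92 (SE 0.77) ranged from -2.20 without HME 3 to -0.21 without control 1. A minor part of the NOTCH2 counts (5.99%) came from an inner region in the part of the gene of which NOTCH2NL is a partial copy, and the division of reads between the copies is uncertain there. This part was larger in HepG2, with 13 counts beside 84 from the last exon, than in Ls174, with 6 beside 214. NOTCH3, a receptor best known from vascular smooth muscle, had between 0 and 4 counts in each of the 12 libraries, and no fold is given.

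Among the 4 receptor genes, NOTCH1 made up 60.5% of 496 counts in Ls174 control cells and 61.9% of 105 counts after HME, and NOTCH2 37.9% and 30.5%. By library the NOTCH1 share was 47.5 to 82.4% without HME and 56.1 to 68.0% with it, and in Ls174 control 3 NOTCH2 was counted more than NOTCH1. In HepG2 cells NOTCH2 was the larger part, 74.7% of 95 counts without HME and 53.1% of 49 counts with it, on counts that spread widely between libraries (23.1 to 77.3% with HME).

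HES1, a transcriptional repressor and direct Notch target, stood at 8.28, 27.2 and 3.62 CPM in HepG2 control cells (13.0 ± 12.5) and at 17.3, 23.1 and 34.0 CPM with HME (24.8 ± 8.49). The overlap rested on HepG2 control 2, whose level was above that of 2 treated libraries. The log2 fold change was 0.96 (SE 0.65) with all libraries, 2.05 without that control and 0.49 without control 3. In Ls174 cells HES1 stood at 25.9, 9.88 and 16.8 CPM without HME (17.5 ± 8.05) and at 13.4, 8.49 and 11.4 CPM with it (11.1 ± 2.48). The groups overlapped, with a log2 fold change of -0.65 (SE 0.41), which was -0.27 without Ls174 control 1.

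HEY1, a repressor of the same family, was near the floor except in treated HepG2 cells. It had 0, 2 and 2 counts in HepG2 controls and 12, 22 and 5 with HME (0.680 ± 0.627 against 5.14 ± 2.39 CPM). The HepG2 groups did not overlap, and the ratio of the scaled sums was 10.8 (exact 95% interval 3.91 to 41.7, counting error only). In Ls174 cells HEY1 had 0 counts in all controls and 3, 2 and 0 with HME, with an overlap at 0. The exact 95% interval of the ratio there began at 0.976 (counting error only), so that no higher level was shown.

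Across the 8 members, 3 passed the filter on low counts in HepG2 (JAG1, NOTCH2, HES1) and 5 in Ls174 (JAG1, JAG2, NOTCH1, NOTCH2, HES1). In HepG2, 1 of the 3, JAG1, was past an adjusted p of 0.05 in edgeR, where 3.31% of 11343 genes were, 2.77% in its direction. The limits the study used, a log2 fold change beyond 0.58 with an unadjusted p under 0.05, took the same gene, beside 22.2% of all genes tested. In Ls174, 1 of 5, NOTCH1, was past the adjusted limit, where 1.18% of 11319 genes were, 0.866% in its direction, and NOTCH1 and NOTCH2 were past the study's limits, beside 12% of all genes. Of the members tested, groups did not overlap for 1 of 3 in HepG2, JAG1 (30.8% of all genes tested there). In Ls174 they did not for 2 of 5, NOTCH1 and NOTCH2 (23.8%). HEY1 in HepG2 did not overlap either but was not among the genes tested. The members were chosen for these contrasts, and the counts are a description only.

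**Figure D3:**
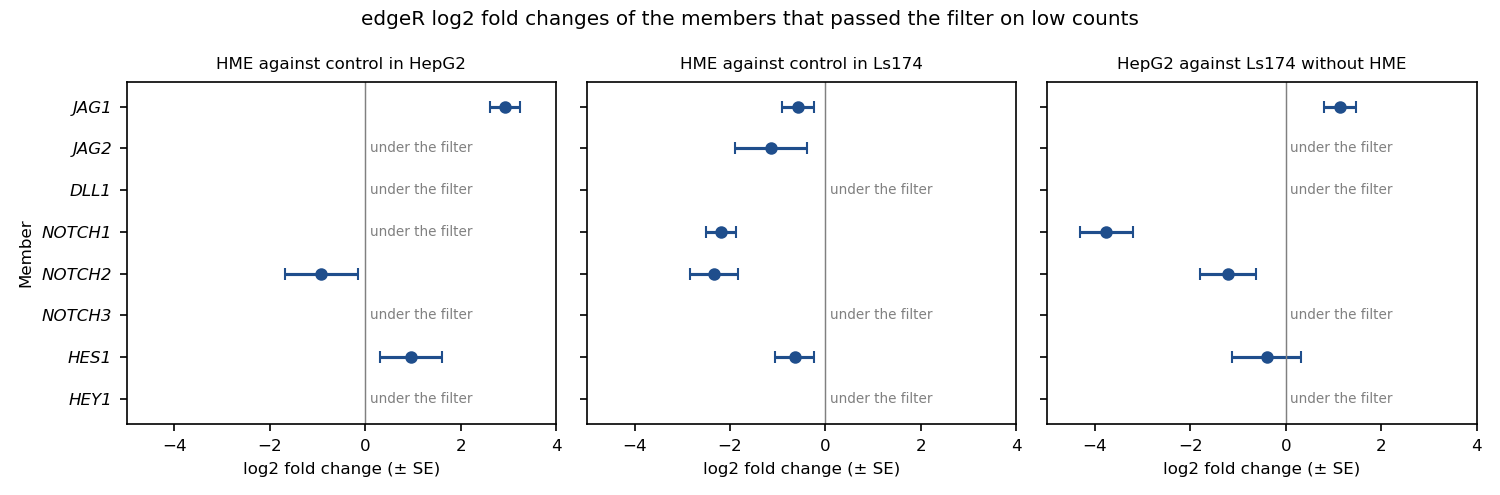
Log2 fold changes from edgeR with SE for the members that passed the filter on low counts, for HME against control in HepG2 (left) and Ls174 (middle) and for HepG2 against Ls174 control cells (right). JAG1 lies at 2.93 in HepG2 and at -0.57 in Ls174, and NOTCH1 and NOTCH2 lie at -2.18 and -2.34 in Ls174.

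The other genes of the pathway were taken from a list of 64 genes in 9 role groups. This list was set with earlier results of these data known, so that its counts, shares and medians are a description and no independent test. In HepG2 cells, 39 of the 64 genes passed the filter and 0 were past an adjusted p of 0.05 in edgeR, beside 3.31% of all genes tested. Of the 39, 10 had an unadjusted p under 0.05. DESeq2 called 5 (MIB2, TLE1, TLE3, ITCH and DTX4, named after their values were seen), and its share over all genes is not given here. The median log2 fold change of the list was 0.06, beside -0.04 over all genes tested. With 22 genes above 0 and 17 below, the list had no common direction, and at the study's limits 6 genes were higher and 4 lower, beside 11.3% and 10.9% of all genes. The split turned to 16 and 23 when libraries were scaled by their totals only, which moved the median of all genes to -0.20.

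The Groucho-type co-repressors TLE1 and TLE3, which HES proteins recruit, both had higher values in treated HepG2 cells. TLE1 stood at 43.0, 27.8 and 39.0 CPM without HME and 87.4, 80.9 and 73.5 CPM with it (log2 fold change 1.15, SE 0.30, edgeR adjusted p = 0.0665). TLE3 stood at 19.8, 20.4 and 10.4 CPM and at 33.8, 38.2 and 52.6 CPM (1.30, SE 0.38, adjusted p = 0.0908). ITCH, a ubiquitin ligase that directs NOTCH to degradation, stood at 16.0, 6.80 and 15.3 CPM without HME and 53.5, 39.6 and 25.7 CPM with it (1.64, SE 0.41, adjusted p = 0.0600). The treated libraries lay above all controls for these 3 genes, and none passed the adjusted limit in edgeR. Groups did not overlap for 13 of the 39 list genes tested in HepG2 and for 30.8% of all genes tested there. MIB2, a ubiquitin ligase for ligand endocytosis, stood at 9.61, 35.9 and 6.03 CPM without HME and 3.58 to 4.72 CPM with it (adjusted p = 0.138). DTX4, a Deltex ligase, stood at 18.7, 90.3 and 19.3 CPM without HME and 6.57 to 8.05 CPM with it (adjusted p = 0.0716). For MIB2 and DTX4 the highest value was that of HepG2 control 2, the library that lay apart, and without it the levels with HME were 1.79-fold lower for MIB2 and 2.38-fold lower for DTX4 (adjusted p = 0.294 and 0.0448).

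In Ls174 cells, 42 of the 64 genes passed the filter. ADAM10, the metalloprotease that makes the ligand-dependent cut in NOTCH, fell, with a log2 fold change of -1.63 (SE 0.27, edgeR adjusted p = 0.0348). It was the 1 gene of the list past the adjusted limit (2.38%), beside 1.18% of all genes tested. It stood at 45.0, 34.6 and 34.6 CPM without HME (38.1 ± 6.0) and 9.79, 14.1 and 13.1 CPM with it (12.3 ± 2.27), lower in 3 of 3 treated libraries than in any control. Its adjusted p was 0.0283 under another scaling and up to 0.274 with a library left out (0.406 without both libraries with liver transcripts), and the call was lost without any 1 library other than control 1. DESeq2 called 5 genes, among them ADAM10, ADAM17 and GXYLT1, and 12 had an unadjusted p under 0.05 in edgeR. All of these 12 were lower with HME and past the study's limits, which is 28.6% of the 42 genes, beside 7.85% of all genes tested past these limits in that direction.

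The lower values lay in several role groups. Of the 8 proteolytic processing genes tested, ADAM17, the second metalloprotease that can cut NOTCH, stood at 56.0 to 73.4 CPM without HME and 27.8 to 33.7 CPM with it (log2 fold change -1.10, SE 0.21, adjusted p = 0.0504). APH1A, a gamma-secretase subunit and the most counted gene of that group, stood at 222 to 291 CPM without HME and 191 to 205 CPM (-0.40, SE 0.19, adjusted p = 0.402). PSEN2, a catalytic subunit of the same enzyme, had its values in the other direction, at 5.38 to 10.5 CPM without HME and 12.7 to 15.9 CPM with it (0.74, SE 0.35, adjusted p = 0.397). None of ADAM17, APH1A and PSEN2 passed the adjusted limit in edgeR.

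RBPJ, the DNA-binding partner of the receptor's inner domain, stood at 61.8 to 81.7 CPM in Ls174 control cells and 54.5 to 55.9 CPM with HME (log2 fold change -0.44, SE 0.20, adjusted p = 0.379). NRARP, a feedback inhibitor that is switched on by Notch, stood at 141, 99.4 and 84.0 CPM and at 74.7, 52.0 and 53.9 CPM (-0.85, SE 0.26, adjusted p = 0.212). LFNG, the Fringe enzyme that adds sugars to NOTCH and changes its choice of ligand, stood at 189, 81.5 and 77.4 CPM and at 48.2, 53.8 and 63.1 CPM (-1.08, SE 0.36, adjusted p = 0.248), and its log2 fold change was -0.52 without control 1, its highest library. NEURL1B, a ubiquitin ligase for ligands, stood at 115, 87.1 and 76.9 CPM and at 64.2, 29.4 and 31.0 CPM (-1.17, SE 0.34, adjusted p = 0.175). Treated and control libraries were apart for each of these genes, and none of them passed the adjusted limit. Groups did not overlap for 20 of the 42 list genes tested in Ls174 and for 23.8% of all genes tested there.

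As the list was chosen with earlier results of these data known, its median is a description only. Over the 42 genes the median log2 fold change in Ls174 was -0.41, beside -0.00287 over all genes, and 31 of the 42 were below 0. The median lay between -0.48 and -0.30 with each library left out and between -0.44 and -0.38 under 3 other scalings. HES6, a HES-family gene and the most counted of its group, stood at 176 to 272 CPM without HME and 191 to 231 CPM with it (log2 fold change -0.17, SE 0.22, adjusted p = 0.750). RFNG, a second Fringe enzyme and the most counted glycosylation gene, stood at 35.8 to 40.1 CPM and 35.7 to 45.4 CPM (0.07, SE 0.20, adjusted p = 0.904). EPN1, an epsin of ligand endocytosis, was highest in the control that lay apart in both lines, at 208 CPM in HepG2 control 2 and 129 CPM in Ls174 control 1, against 37.4 and 55.4 CPM and 40.8 and 28.8 CPM in the other controls.

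**Figure D4:**
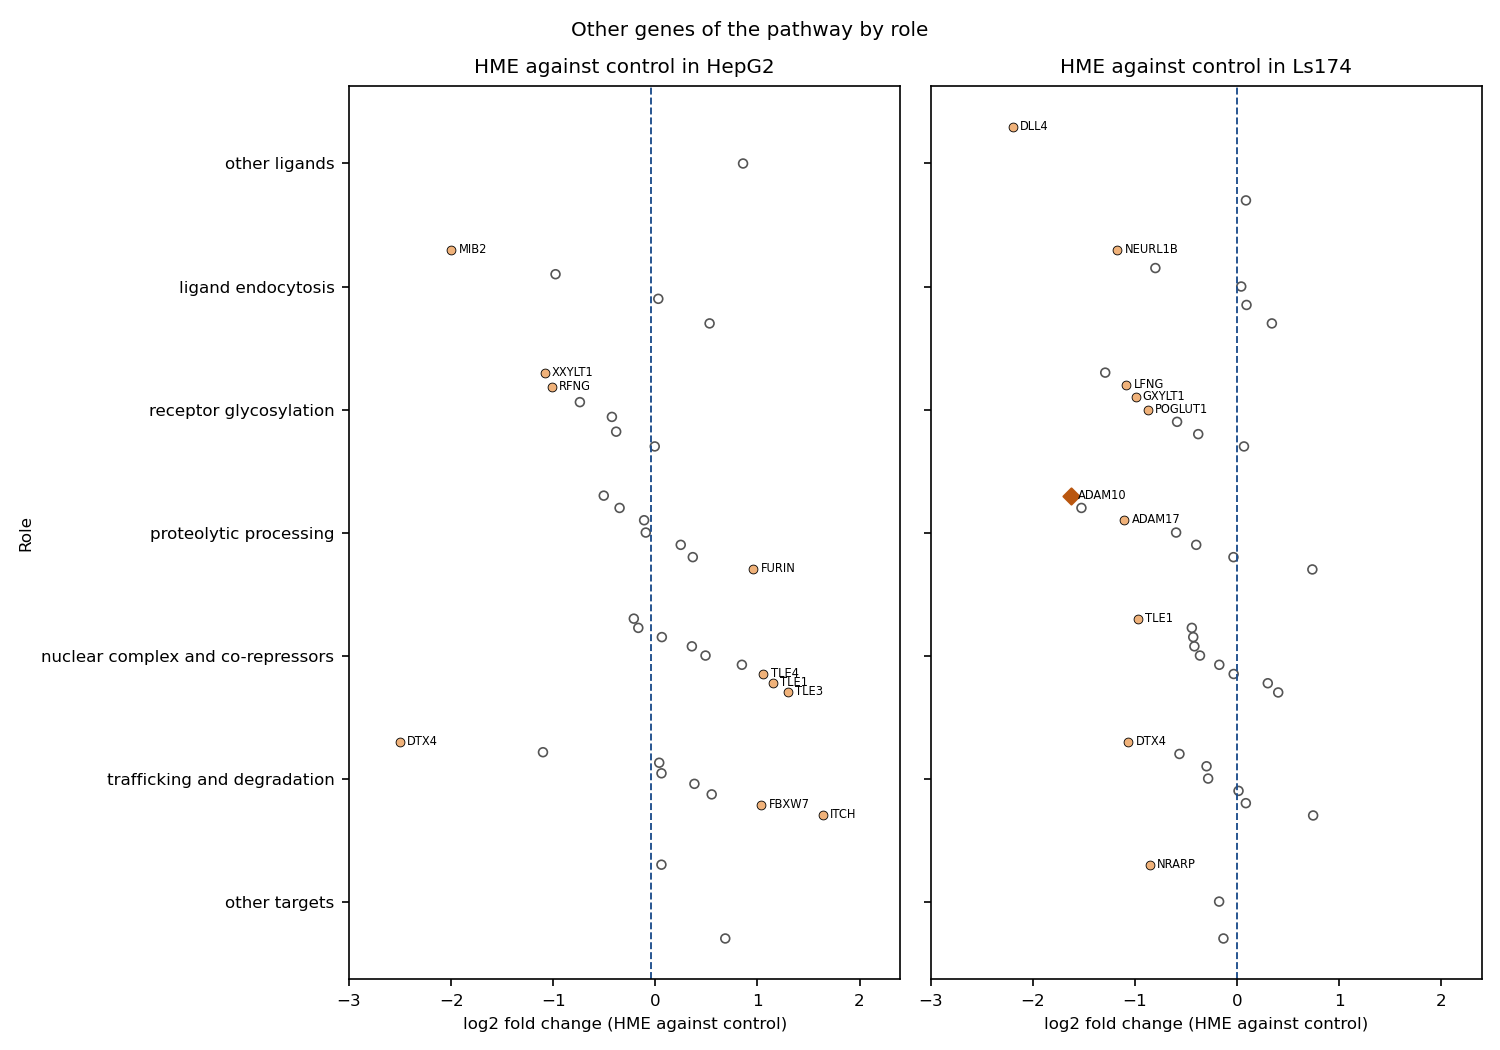
Log2 fold change with HME in HepG2 (left) and Ls174 (right) of other pathway genes that passed the filter (2 are not drawn), by role, with a dashed line at the median of all genes. Open points are past no limit, filled points are past the study's limits (named), and the diamond is past an adjusted p of 0.05 (ADAM10, -1.63). The 10 genes named in Ls174 lie below 0, and in HepG2 6 lie above and 4 below.

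The control cells of both lines were also compared. JAG1 was 2.21-fold higher in HepG2 than in Ls174 control cells (log2 1.14, SE 0.34) and NOTCH1 13.6-fold lower (-3.76, SE 0.55), with no overlap between lines for either gene. The members were chosen for this contrast too, so that their calls are a description and no support. The value of JAG1 was past an adjusted p of 0.05 in 8 of 17 alternatives and that of NOTCH1 in 16 of 16. These 2 of the 4 members that passed the filter were past an adjusted p of 0.05, where 23.5% of 11907 genes were (14.2% higher and 9.33% lower in HepG2), and past the study's limits, where 35.0% were. The groups also did not overlap for JAG2 (42.7% of all genes tested), which had 0 counts in HepG2 and 37 in Ls174 control cells. The exact interval of the ratio of the scaled sums, HepG2 to Ls174, reached up to 0.123 for JAG2 (counting error only). For DLL1 this interval reached up to 0.267, with an overlap at 0 through Ls174 control 1. NOTCH2 (-1.21, SE 0.58) and HES1 (-0.40, SE 0.72) overlapped between the lines.

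Of the 42 other pathway genes tested between the lines, 6 were higher in HepG2 (DLK1, RFNG, POFUT1, GXYLT1, XXYLT1 and TLE1) and 6 lower (DLL4, NEURL1B, LFNG, TLE4, NRARP and HES6), which is 28.6% of them, near the 23.5% of all genes. Among them DLK1, DLL4, NEURL1B, LFNG and NRARP passed the filter through the line of their higher level alone. POFUT1 and GXYLT1 were each past the limit in 8 of 17 alternatives and TLE4 in 8 of 16. DLK1, a non-canonical ligand of fetal liver, had 2612, 116 and 1100 counts in HepG2 control cells and 0, 0 and 7 in Ls174. The 7 counts lay in Ls174 control 3, a library with liver transcripts. The ratio of the scaled sums was 642 (exact 95% interval 311 to 1600, counting error only). DLK1 passed the filter through HepG2 alone, which fixed its direction beforehand. Its edgeR adjusted p of 8e-04 is therefore no support for it. RFNG was higher in HepG2 (log2 fold change 2.27, SE 0.42, adjusted p = 0.0038), at 125 to 273 CPM against 35.8 to 40.1 CPM. TLE1 was higher by 2.28 (SE 0.37, adjusted p = 0.00194).

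The Fringe enzymes were divided between the lines, RFNG as above and LFNG lower in HepG2 (log2 fold change -6.86, SE 0.65, adjusted p = 0.000154), at 0.534 to 1.85 CPM against 77.4 to 189 CPM. NEURL1B was lower in HepG2 by -7.08 (SE 0.60, adjusted p = 0.000104), with 5 counts over 3 libraries against 819. NRARP was lower by -6.34 (SE 0.50, adjusted p = 0.000101), at 0.618 to 2.01 CPM in HepG2 against 84.0 to 141 CPM in Ls174. DLL4 had 0 counts in all HepG2 libraries and 39, 25 and 28 in the Ls174 controls (edgeR adjusted p = 0.00297). The exact interval of its ratio of scaled sums, HepG2 to Ls174 controls, reached up to 0.048 (counting error only). HES6 was lower by -1.48 (SE 0.41, adjusted p = 0.0296), at 42.7 to 117 CPM against 176 to 272 CPM. In all 12 libraries NRARP thus stood at most at 2.39 CPM in HepG2 and at least at 52.0 CPM in Ls174, a wider gap than for HES1, whose lines overlapped.

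The effect of HME was set against itself between the lines by the interaction of line and treatment. For JAG1 the difference of the 2 log2 fold changes was 3.48 (SE 0.40), and it lay between 3.22 and 3.77 with each library left out. Of the 5 members that passed the filter, JAG1 was the 1 past an adjusted p of 0.05, where 0.644% of 13040 genes were, 0.613% in its direction. JAG2 and NOTCH1 were also past the study's limits, as 13.2% of all genes were, but JAG2 had 0 counts in every HepG2 control and NOTCH1 20 counts in each HepG2 group, so that their HepG2 side lay at or near the floor and nothing is read from it. NOTCH1 had a difference of 2.37 (SE 0.68) on these few counts, HES1 of 1.63 (SE 0.80) and NOTCH2 of 1.37 (SE 1.00). The difference for HES1 was 2.62 without HepG2 control 2 and 1.17 without HepG2 control 3, and that for NOTCH2 was 0.09 without HepG2 HME 3.

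Of 44 other pathway genes tested for the interaction, TLE1 was called (2.27%, beside 0.644% of all genes tested). Its difference was 2.09 (SE 0.41, edgeR adjusted p = 0.0311). The call held in 9 of 21 alternatives, with an adjusted p of up to 0.123 with 1 library left out. Of the list, 12 genes had an unadjusted p under 0.05. All 12 were past the study's limits (27.3%, beside 13.2% of all genes tested). DESeq2 called 3 (ADAM10, ADAM17 and TLE1), and its share over all genes is not given here. In Ls174 cells TLE1 stood at 8.31, 7.41 and 7.38 CPM without HME and 3.26, 4.24 and 4.25 CPM with it, a log2 fold change of -0.97 (SE 0.41), and in HepG2 it was at 1.15 as above. ADAM10 had a difference of 1.48 (SE 0.43, adjusted p = 0.148) and stood at 31.8, 20.4 and 39.0 CPM in HepG2 control cells and 27.2, 25.6 and 31.1 CPM with HME. Whether ADAM10 answered differently in the lines was therefore not shown by edgeR. The median difference of the list was 0.47, beside -0.04 over all genes, with 32 genes above 0 and 12 below.

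The genes with the pattern most like that of JAG1 were sought by Pearson correlation of log2 CPM, centred on the mean of each line, over the 12 libraries and 9870 genes. Of the first 5, those named here were IER5L, of the immediate early response family (0.962), KLF5 (0.962), RALB (0.961) and KLHL21 (0.951). These values describe a pattern in libraries that share their totals and treatments, and they rest on HepG2, where r was 0.987 to 0.997 over 6 libraries, against 0.228 to 0.654 in Ls174. KLF5, a zinc-finger transcription factor of epithelia, stood at 1.60, 1.24 and 1.61 CPM in HepG2 control cells and 52.3, 35.7 and 41.2 CPM with HME, while in Ls174 it stood at 56.7 to 81.7 and 51.3 to 63.4 CPM. RALB, a small GTPase, stood at 45.7 to 51.8 CPM without HME and 96.8 to 102 CPM with it in HepG2, and KLHL21, an adaptor of a ubiquitin ligase, stood at 40.2 to 47.0 and 134 to 153 CPM. In HepG2 the treated libraries lay above all controls for each of the 4 genes, as for JAG1. This follows from their choice by correlation with JAG1 and is no further result. Of all genes tested in HepG2, 30.8% had groups that did not overlap. Of the pathway genes, none was among the 5.

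**Figure D5:**
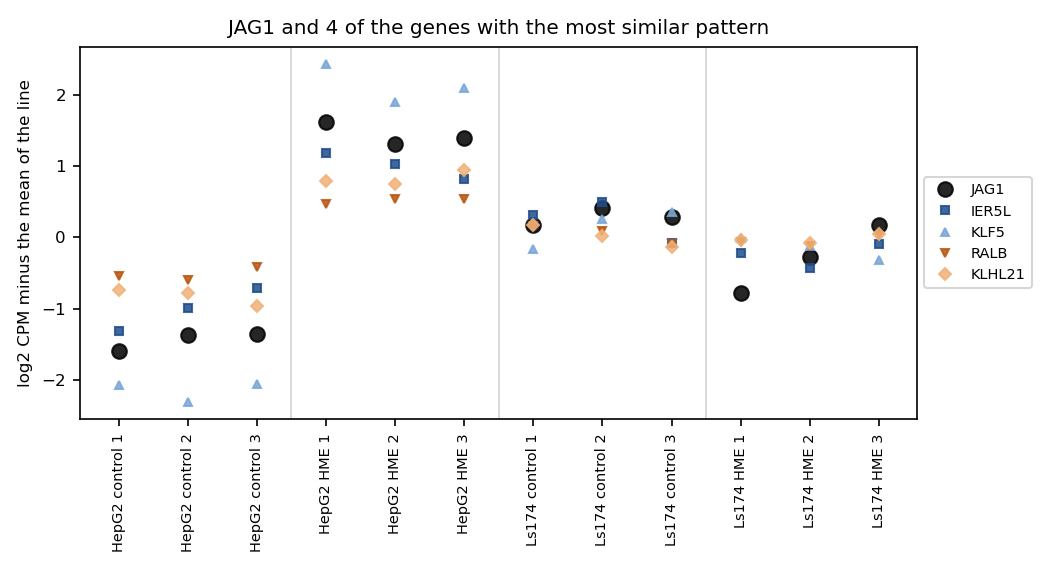
Log2 CPM minus the mean of the cell line for JAG1 (black circles) and 4 of the genes of the most similar pattern, with 1 column per library and grey lines between the groups. In HepG2 all 5 genes lie below 0 in the 3 control libraries and above 0 in the 3 HME libraries, and in Ls174 they lie within about 1 log2 unit of 0.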

How the data were processed

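RNA of 12 cultures (HepG2 and Ls174, control and HME, 3 each) was sequenced by the authors from QuantSeq 3′ mRNA libraries on an Ion Proton instrument, aligned to hg19 with Hisat2 at default settings and passed to metaseqR2. Bowtie2 and Trimmomatic are also named in the submitters' processing notes, without a role. The deposited files hold raw read counts per 3′ region (144910 regions, whole numbers, not normalized). How reads with several alignments or on the other strand were counted is not given in the sources used here. Intervals cover counting error only. The study's methods give a slightly different concentration of HME than the labels.

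Counts were summed per gene identifier. Genes were tested with the quasi-likelihood F test of edgeR 4.0.16 after filterByExpr and TMM scaling, with Benjamini-Hochberg adjustment over all genes tested, in R 4.3.3, each line and the control cells fitted alone and the interaction on all 12 libraries, with DESeq2 1.42.0 as an alternative. The interval of a ratio of summed counts is the exact conditional binomial interval (95%), scaled by effective library sizes. For correlations, log2 CPM values had a prior count of 2. Regions were placed on the GENCODE annotation lifted to GRCh37, and promoter windows are RefSeq's (GRCh38.p14). The members and lists were chosen with earlier results of these data known. Named were the members, the pathway genes past an adjusted p of 0.05 (at most 8 per comparison), the gene of each role with most counts, and the 5 genes most like JAG1. Further names were picked once values were seen. The fit was tested on simulated data with known changes. Same-numbered control and HME replicates did not deviate together (r -0.17 to 0.088), so that the numbers do not pair them. Some genes that the rule names are not reported here. The proteome, PCR and chromatin data of the study were not analysed here.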

Additional observations from a re-analysis of the deposited data

Results flagged for a closer look

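The log2 fold change with HME was compared between the lines for 2 genes described above. For JAG1 it was 3.48 higher in HepG2 than in Ls174 (SE 0.40). JAG1 was chosen for this contrast, so that its value is a description and not the outcome of a test, and the treated libraries were higher than all controls in 3 of 3 HepG2 cultures. For TLE1 the difference was 2.09 (SE 0.41, edgeR adjusted p = 0.0311), with all treated libraries above the controls in HepG2 and below them in Ls174. The call held in 9 of 21 alternatives, and its adjusted p ranged from 0.000805 (DESeq2) to 0.200 (without both Ls174 libraries that held liver transcripts), with up to 0.123 when 1 library was left out. The reason for either difference was not tested.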

How the results depend on the processing

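The directions of JAG1 in HepG2 (16 of 16 alternatives) and between treatments and lines (22 of 22) and of NOTCH1 in Ls174 (17 of 17) were the same in every alternative run, while the number of genes past an adjusted p of 0.05 moved. For members in HepG2 (1 called) it was 3 by the binomial test on summed counts and 2 with no filter, and 1 to 3 with each library left out (3 without HepG2 control 2). For the list of 64 in HepG2 (0 called) it was 5 with DESeq2, 20 by the binomial test, 1 with library size only, 4 with no filter, 4 in 1 fit of all 12 libraries, 10 at the study's limits and 0 to 5 with a library left out (5 without HepG2 control 2). For members in Ls174 (1) it was 2 with DESeq2, 5 by the binomial test, 2 with no filter, 2 at the study's limits, 0 without both libraries with liver transcripts (an alternative added after seeing the data, as are the 2 like it below), and 0 to 2 with a library left out (2 without control 1, 0 without any other). For the list in Ls174 (1) it was 5 with DESeq2, 27 by the binomial test, 3 with library size only, 8 with no filter, 3 with at least 10 counts in every library, 12 at the study's limits, 0 without both libraries with liver transcripts and 0 to 8 with a library left out (8 without control 1). Between lines (2 members) it was 4 by the binomial test, 1 with library size only, 1 with upper quartile scaling, 1 with at least 10 counts, 4 without the control of each line that lay apart and 1 to 3 with a library left out. The list between lines (12) gave 32 by the binomial test, 4 with at least 10 counts, 23 without those controls and 8 to 13 with a library left out. The interaction of members (1) gave 2 with DESeq2, 3 at the study's limits and 2 without those controls. That of the list (1) gave 3 with DESeq2, 0 with library size only, 0 with at least 10 counts, 12 at the study's limits, 3 without those controls, 0 without both libraries with liver transcripts and 0 to 2 with a library left out. The numbers over all genes (375 in HepG2, 134 in Ls174, 2798 between lines and 84 for the interaction) moved as well. By the binomial test they were 7145 of 11343 in HepG2, 5530 of 11319 in Ls174 and 9043 of 11907 between lines. With a library left out they were 95 to 921 in HepG2 (921 without control 2) and 0 to 979 in Ls174 (979 without control 1). Between lines they were then 2134 to 3367, and for the interaction 17 to 143. The causes were not tested. The members were chosen for these contrasts, so that the numbers and directions given for them are a description and no test.

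With the replicate number as a block (replicate block), the numbers called were 0 members and 0 list genes in Ls174, 1 member and 7 list genes between lines, and 0 list genes for the interaction. Across 9 same-numbered pairs r was -0.41 to 0.13, and 1 of the 9 correlated best with its own number. No pairing by number was thus seen, which 3 replicates per group cannot settle. Library-size scaling moved the median log2 fold change of all genes from -0.04 to -0.20 in HepG2 and from 0.04 to -0.17 between lines. The planned test of 3′ region use between lines gave no value, since 0 members had 2 regions with counts and at least 10 counts in every library. Depth limits JAG2, DLL1, NOTCH3 and HEY1 in both lines and NOTCH1 in HepG2, where groups held few counts.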
